A study of Homo sapiens with 2 samples.

Results

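The genes described here are 10 that mark or set the position of a cell between an epithelial and a mesenchymal state. They were chosen by symbol, as junction proteins and their regulators, and all 10 matched an Ensembl gene among the 60683 genes of the count table. CDH1, CDH2, EPCAM and TJP1 encode proteins of cell contacts, ZEB1, ZEB2, SNAI1, SNAI2 and TWIST1 encode transcription factors, and ESRP1 encodes a splicing factor. RNA-seq was made from HEK293T, an established line of human embryonic kidney origin that carries the large T antigen of SV40. The samples form 1 group of 2, both HEK293T cells in which FKBP5, an immunophilin that binds HSP90, was stably knocked down with shRNAs. The sources used here do not say whether the cells were a clone or a pool, or whether the samples were separate cultures, so their spread may be only technical. Control cells were not analysed here. The values are therefore levels in knockdown cells and a difference between 2 libraries, and no effect of the knockdown was measured.

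Epithelial cells adhere through E-cadherin at adherens junctions and seal their borders with tight junctions. In the epithelial-mesenchymal transition, factors of the ZEB, SNAI and TWIST families repress E-cadherin and other epithelial genes, and N-cadherin is often expressed in its place. ZEB1 and ZEB2 are in turn repressed by the microRNAs of the miR-200 family, which ZEB proteins repress, and ESRP proteins hold the epithelial pattern of splicing. Kidney tubules form by the reverse change, from mesenchyme to epithelium.

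The sequences through which the miR-200 family meets ZEB1 and ZEB2 are shown first, because they link 2 of the 10 genes to genes that were almost without counts here. The mature microRNAs fall into 2 sets by their seed (bases 2 to 8, in capitals, from RefSeq on GRCh38.p14), which differ at a single base.
hsa-miR-141-3p: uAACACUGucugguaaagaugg
hsa-miR-200a-3p: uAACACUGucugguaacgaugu
hsa-miR-200b-3p: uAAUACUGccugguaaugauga
hsa-miR-200c-3p: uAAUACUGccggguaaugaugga
hsa-miR-429: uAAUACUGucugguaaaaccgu

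The 3' UTRs of ZEB1 and ZEB2 each held 9 matches to these seeds in the 1 GENCODE 29 transcript read for each gene. Matches were searched on the transcript strand only, as CAGTATT (for the seed AAUACUG) and CAGTGTT (for AACACUG), 2 words that cannot lie at the same place. ZEB1 had 6 of the first and 3 of the second in 2549 bases, or 3.53 per kb. ZEB2 had 5 and 4 in 5370 bases, or 1.68 per kb. Over the 3' UTRs of 18597 coding genes the density was 0.260 per kb, and 0.0269% of these genes had as many as 9 matches. Of the 2132 3' UTRs from 0.8 to 1.25 times the length of that of ZEB1, 0.0469% had as many, and of the 923 such for ZEB2, 0.217%. ZEB1 and ZEB2 were not left out, so each of these shares counts the gene itself. ESRP1 had 2 matches, SNAI2 and TJP1 had 1 each, and CDH1, CDH2, EPCAM, SNAI1 and TWIST1 had 0. A match of letters is a description and not a measured site.

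The matches to AAUACUG that are followed by an A are printed with the match and that A in capitals, on the transcript strand, with coordinates on GRCh38. ZEB1 had 3 of this kind and ZEB2 had 4. They are shown because the base after the match lies opposite the first base of the microRNA, where an A is known to favour binding.
ZEB1 chr10:31527618-31527640 (plus strand): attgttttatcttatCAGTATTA
ZEB1 chr10:31528492-31528514 (plus strand): ctgatttttacctatCAGTATTA
ZEB1 chr10:31528562-31528584 (plus strand): tgtcttcaaacctggCAGTATTA
ZEB2 chr2:144388989-144389011 (minus strand): cgcactacaatgcatCAGTATTA
ZEB2 chr2:144388631-144388653 (minus strand): ttgaagcacccatgtCAGTATTA
ZEB2 chr2:144388546-144388568 (minus strand): gttcattaattttgtCAGTATTA
ZEB2 chr2:144388415-144388437 (minus strand): tcatactgtagtgtaCAGTATTA

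**Figure D1:**
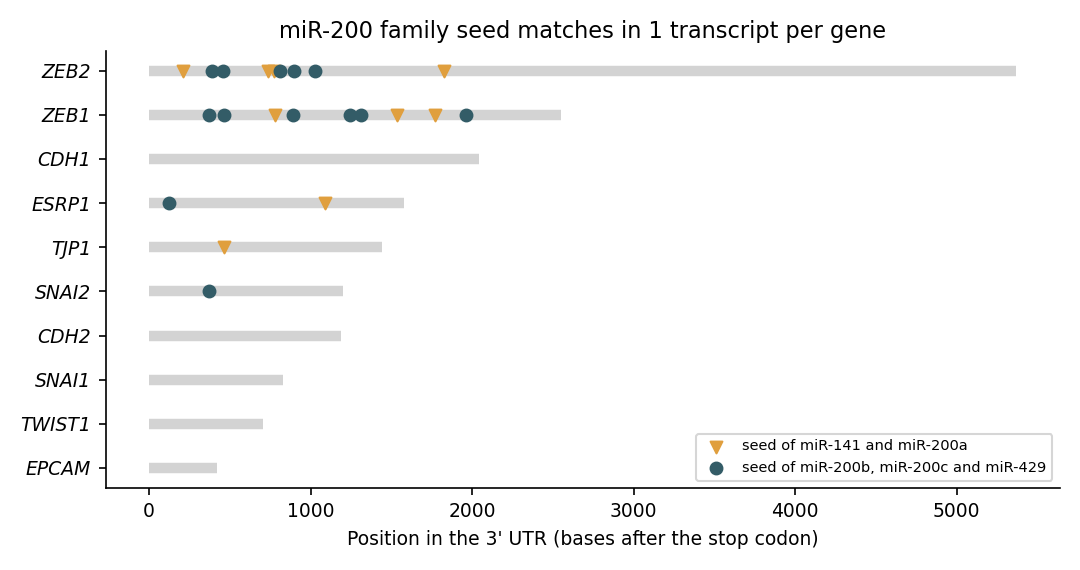
Seed matches of the miR-200 family along the 3' UTR of each of the 10 genes, in bases after the stop codon of 1 transcript per gene; grey bars are the 3' UTRs, circles match AAUACUG and triangles AACACUG. ZEB1 and ZEB2 carry 9 matches each, and no other of the 10 genes carries more than 2.

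The genes of the miR-200 family had almost no counts. MIR200CHG, the host transcript of miR-200c and miR-141, had 1 count in each sample, or 0.0964 CPM in sample 1 and 0.0458 CPM in sample 2. MIR200C, MIR141, MIR200B, MIR200A and MIR429 had 0 counts in both samples. The level of 3 counts, set here as a floor, was 0.289 CPM in sample 1 and 0.137 CPM in sample 2. Mature microRNAs are too short for such libraries, so their levels were not measured. The counts of 0 therefore do not show whether the family was expressed.

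The libraries held 9997706 counts in sample 1 and 21284648 in sample 2, so a low gene is known less precisely in sample 1. Levels are given as CPM (counts scaled to the library size), with a 95% exact Poisson interval that covers counting error only, since the reads carry no stated molecular identifiers. FKBP5, the gene knocked down, had 3.95 CPM in sample 1 (2.84 to 5.36) and 3.52 CPM in sample 2 (2.78 to 4.40). Markers of cell types were read next as a description, from lists chosen with earlier results of these data known. They do not test the label, since 65.4% of protein-coding genes had at least 1 CPM in both samples. All 10 embryonic kidney and neural genes that HEK293 cells are known to express had at least 1 CPM in both samples, with a sum of 642 CPM in sample 1 and 616 CPM in sample 2, with NEFL and NEFM among the highest per kb. Of 9 markers of fibroblasts 4 reached 1 CPM in both samples, and their sums were 64.2 and 74.7 CPM, mostly from COL1A1, with COL3A1 and LUM next per kb. Of 9 markers of keratin-rich epithelial lines only MUC1 reached 1 CPM in both samples (sums 10.5 and 12.9 CPM), and KRT7 had 0 counts. Of 9 markers of differentiated kidney epithelium LRP2 and CUBN did (sums 37.8 and 41.0 CPM; LRP2, NPHS1 and AQP1 led per kb). Of 8 blood cell markers 1 did, and SPI1 and CD14 did not (sums 5.78 and 9.93 CPM). Of 5 endothelial markers, VWF, KDR, TEK, CDH5 and PECAM1 in order per kb, 1 did (sums 3.76 and 4.26 CPM).

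All 10 genes had at least 1 CPM in both samples, which 65.4% of the protein-coding genes and 24.8% of all genes of the table did. They covered a wide range, with TJP1, CDH2, TWIST1 and ZEB1 making up 89.0% of the summed CPM of the 10 in sample 1 and 88.8% in sample 2. The remaining 6 genes, CDH1 among them, shared the rest. To compare genes, CPM was divided by the length of the merged exons in kb. On that scale 3 of the 10 (TWIST1, CDH2 and TJP1) lay above the median of 5.72 CPM per kb of 13244 protein-coding genes whose mean reached 1 CPM, and 7 lay below it.

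**Figure D2:**
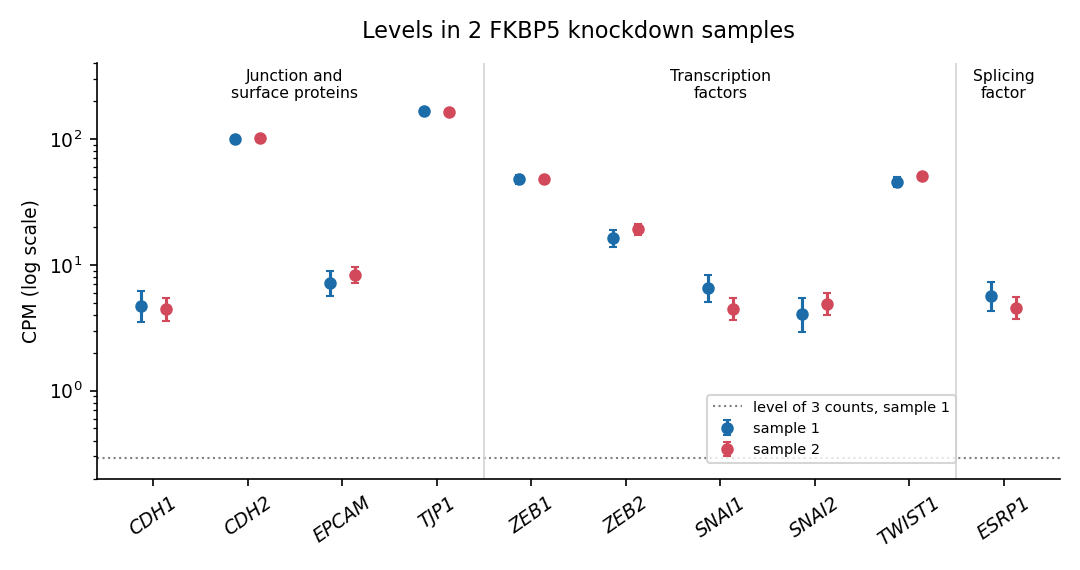
CPM (log axis) of each of the 10 genes in sample 1 (blue) and sample 2 (red), with 95% exact Poisson intervals; the dotted line is the level of 3 counts in sample 1. TJP1 and CDH2 lie at or near 100 CPM and above, TWIST1, ZEB1 and ZEB2 between 16.3 and 50.7 CPM, and the other 5 genes below 10 CPM in both samples.

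Among the junction and surface proteins, the level of N-cadherin was far above that of E-cadherin. CDH2, which encodes N-cadherin, the calcium-dependent adhesion protein of neural and mesenchymal cells, had 1031 counts in sample 1 and 2206 counts in sample 2. Its CPM was 99.4 (93.4 to 105.6) and 100.9 (96.8 to 105.2), with a mean of 100.2 ± 1.11 CPM (SD, n = 2). The samples lay close together, and 85.3% of the tested genes had a lower CPM. CDH1, which encodes E-cadherin, the adhesion protein of epithelial adherens junctions, had 49 and 97 counts, or 4.72 CPM in sample 1 (3.49 to 6.24) and 4.44 CPM in sample 2 (3.60 to 5.41). Its mean was 4.58 ± 0.201 CPM (SD, n = 2), low but well above the level of 3 counts. Per kb, the level of CDH2 was 26.3 times that of CDH1 in sample 1 (95% exact interval of the counts 19.7 to 35.7) and 28.4 times in sample 2 (23.2 to 35.1).

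CDH2 was also the highest of 19 classical and type II cadherin genes and took 52.3% of their summed mean CPM. CDH24, a type II cadherin, was next with 13.3 ± 0.975 CPM per kb, against 20.2 ± 0.225 CPM per kb for CDH2 (SD, n = 2). CDH4 (R-cadherin) had 2.25 ± 0.00126 and CDH3 (P-cadherin) 1.43 ± 0.0806 CPM per kb. CDH1 had rank 5, at 0.742 ± 0.0325 CPM per kb, below CDH3 in both samples by 1.80 times (1.26 to 2.60) and 2.07 times (1.62 to 2.67). Of the 17 cadherins besides CDH1 and CDH2, 6 had at least 1 CPM in both samples, CDH10, CDH22 and CDH7 being the others. CDH11, a cadherin of mesenchymal cells, had 0.193 and 0.458 CPM, from 2 and 10 counts.

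EPCAM, which encodes an epithelial surface glycoprotein that serves as a marker of carcinoma cells, was low. It had 74 counts in sample 1 and 181 in sample 2, or 7.13 CPM (5.60 to 8.95) and 8.28 CPM (7.12 to 9.58), and the intervals overlapped. Per kb, CDH2 exceeded EPCAM 7.09 times in sample 1 (5.60 to 9.10) and 6.20 times in sample 2 (5.33 to 7.26).

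TJP1, which encodes the tight junction scaffold ZO-1, had the highest CPM of the 10 genes. It had 1746 and 3582 counts, or 168 CPM (160.5 to 176) and 164 CPM (159 to 169), with a mean of 166 ± 3.09 CPM (SD, n = 2). The protein also binds the catenins of adherens junctions and is not confined to epithelial cells. Per kb, TJP1 was 19.5 times CDH1 in sample 1 (14.7 to 26.5) and 20.2 times in sample 2 (16.5 to 25.0). Its paralog TJP3 lay lower, with TJP1 exceeding it 5.31 times (4.42 to 6.43) and 4.51 times (4.01 to 5.10).

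Of the transcription factors, TWIST1 and ZEB1 were well above the others. TWIST1, a basic helix-loop-helix factor of mesoderm and neural crest, had 476 and 1108 counts. These were 45.9 CPM in sample 1 (41.8 to 50.2) and 50.7 CPM in sample 2 (47.8 to 53.8). It is a short transcript, so that per kb it was the highest of the 10 genes, at 22.6 CPM per kb in sample 1 and 24.9 CPM per kb in sample 2, above 85.6% of the tested protein-coding genes. Its paralog TWIST2 was lower, with TWIST1 at 1.76 times its level per kb in sample 1 (1.51 to 2.06) and 1.88 times in sample 2 (1.69 to 2.08).

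ZEB1, a zinc finger and homeodomain repressor that binds E-box DNA, had nearly the same CPM as TWIST1 from a longer transcript. It had 495 and 1049 counts, or 47.7 CPM in sample 1 (43.6 to 52.1) and 48.0 CPM in sample 2 (45.1 to 51.0), with a mean of 47.9 ± 0.206 CPM (SD, n = 2). Per kb this was 5.53 ± 0.0238 CPM per kb, near the middle of the coding genes, of which 49.1% lay below it. TWIST1 exceeded it per kb 4.09 times in sample 1 (3.60 to 4.65) and 4.49 times in sample 2 (4.13 to 4.89). The antisense gene ZEB1-AS1 overlaps 4.23% of the ZEB1 exon bases and had 82 and 228 counts. The sources used here do not give the strand setting of the counting, so reads in this overlap cannot be told apart.

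ZEB2, the paralog of ZEB1, had 169 counts in sample 1 and 417 in sample 2, or 16.3 CPM (13.9 to 18.9) and 19.1 CPM (17.3 to 21.0). Per kb of merged exon, ZEB1 was 8.48 times ZEB2 in sample 1 (7.11 to 10.2) and 7.29 times in sample 2 (6.50 to 8.18). The merged exons of ZEB2 span 25058 bases against 9583 bases for its longest coding transcript, and by the length of the longest coding transcript of each gene the mean ratio was 4.15.

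SNAI1 and SNAI2, which encode the zinc finger repressors Snail and Slug, were low. SNAI1 had 68 counts in sample 1 and 98 in sample 2, or 6.55 CPM (5.09 to 8.31) and 4.48 CPM (3.64 to 5.46), and was thus lower in the deeper sample 2. SNAI2 had 42 and 107 counts, or 4.05 CPM (2.92 to 5.47) and 4.90 CPM (4.01 to 5.92). Per kb of merged exon, SNAI2 lay below SNAI1 in both samples. The level of SNAI2 was 0.307 times that of SNAI1 in sample 1 (0.204 to 0.458) and 0.543 times in sample 2 (0.409 to 0.721). With the longest coding transcript, SNAI2 had 1.67 and 2.02 CPM per kb in samples 1 and 2, against 3.89 and 2.66 for SNAI1. The mean ratio was then 0.570, and no interval was computed for that length. Their paralog SNAI3 had 5.20 and 4.21 CPM, and its ratio to SNAI1 per kb was 0.773 in sample 1 (0.531 to 1.12) and 0.914 in sample 2 (0.680 to 1.23), so both intervals include equal levels. TWIST1 exceeded SNAI1 per kb 5.81 times in sample 1 (4.49 to 7.60) and 9.38 times in sample 2 (7.62 to 11.6).

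ESRP1 encodes an RNA-binding protein that promotes the epithelial pattern of splicing of FGFR2, CD44, ENAH and CTNND1. ESRP1 had 59 counts in sample 1 and 99 counts in sample 2. Its CPM was 5.69 (4.33 to 7.34) and 4.53 (3.68 to 5.52), with overlapping intervals. ZEB1 exceeded ESRP1 per kb 4.73 times in sample 1 (3.60 to 6.30) and 5.97 times in sample 2 (4.86 to 7.41). Its paralog ESRP2 was much higher, with 76.4 and 76.5 CPM in samples 1 and 2. Per kb, ESRP2 was 11.8 times ESRP1 in sample 1 (9.03 to 15.6) and 14.8 times in sample 2 (12.1 to 18.3). Counts per gene do not show which exons were used.

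Per kb the order of the 10 genes by their means ran from TWIST1 (23.8 ± 1.68 CPM per kb), CDH2 (20.2 ± 0.225), TJP1 (14.7 ± 0.275) and ZEB1 (5.53 ± 0.0238) to SNAI1 (3.27 ± 0.868) and EPCAM (3.06 ± 0.323), then SNAI2 (1.32 ± 0.177), ESRP1 (1.05 ± 0.168), CDH1 (0.742 ± 0.0325) and ZEB2 (0.706 ± 0.0788 CPM per kb), all SD with n = 2. The highest level was 33.7 times the lowest. Of the 9 neighbouring pairs in this order, SNAI1 with EPCAM and CDH1 with ZEB2 had samples that overlapped, so these did not differ beyond their spread. The samples of the other 7 pairs did not overlap, but these ranges of 2 samples leave out counting error. In sample 1, SNAI2 and ESRP1 had 1.19 and 1.17 CPM per kb from 42 and 59 counts. The order of such close pairs is therefore not settled. By the longest coding transcript TWIST1, CDH2, TJP1 and ZEB1 kept ranks 1 to 4, ZEB2 rose from rank 10 to rank 7 (1.85 ± 0.206 CPM per kb, beside SNAI2 at 1.84 ± 0.247), and CDH1 was lowest at 0.937 ± 0.0411 CPM per kb.

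**Figure D3:**
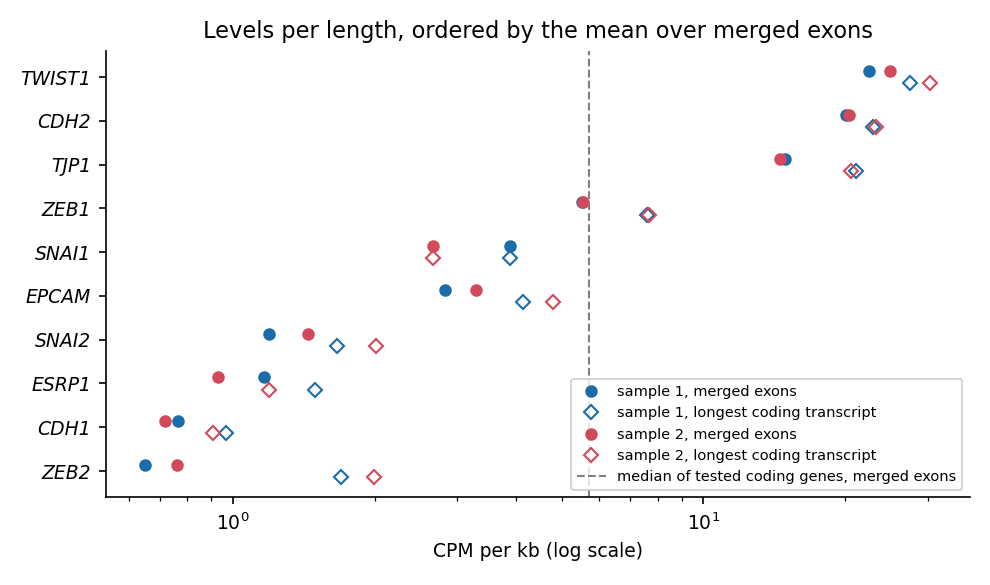
CPM per kb (log axis) of the 10 genes in sample 1 (blue) and sample 2 (red), by merged exon length (filled circles) and by the longest coding transcript (open diamonds); the dashed line is the median of tested coding genes, 5.72 CPM per kb. The line holds for merged exons only, and no median was computed by the longest coding transcript. By merged exons TWIST1, CDH2 and TJP1 lie above the line and ZEB1 near it. ZEB2 moves furthest between the lengths.

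The 2 libraries were then compared for each gene by a 2-sided exact binomial test of the counts, adjusted by Benjamini-Hochberg over the 15530 genes whose mean reached 1 CPM. This test compares libraries and not conditions. None of the 10 genes passed an adjusted p of 0.05, where 8.97% of all tested genes did, 4.41% higher and 4.56% lower in sample 2. Of the 10, 6 were higher in sample 2 and 4 lower, and their median log2 ratio of CPM + 1 was 0.02, beside 0.01 over all tested genes. At an unadjusted p under 0.05 there was 1 gene of the 10, where 21.7% of tested genes passed. It was SNAI1, at 0.684 times its sample 1 level in sample 2 (95% exact interval 0.497 to 0.946, binomial p = 0.0197, adjusted p = 0.129).

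The interval of the ratio included 1 for the other 9 genes and shows how large a difference the counts allow. It was narrow for TJP1 (0.974, from 0.920 to 1.03), CDH2 (1.02, from 0.943 to 1.09), ZEB1 (1.01, from 0.903 to 1.12) and TWIST1 (1.11, from 0.992 to 1.23). ZEB2 had a ratio of 1.17 (0.977 to 1.41) and EPCAM of 1.16 (0.881 to 1.54). It was wide for CDH1 (0.940, from 0.660 to 1.35), SNAI2 (1.21, from 0.839 to 1.77) and ESRP1 (0.797, from 0.571 to 1.12), so differences within these bounds were not detectable at this depth. The direction of ZEB1 turned with the scaling, its log2 ratio being 0.0086 with the deposited scaling and -0.0065 with column totals. SNAI1 had a log2 ratio of CPM + 1 of -0.46, where the 5215 tested genes of its range, from 1 to under 10 CPM, had an SD of 0.28.

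**Figure D4:**
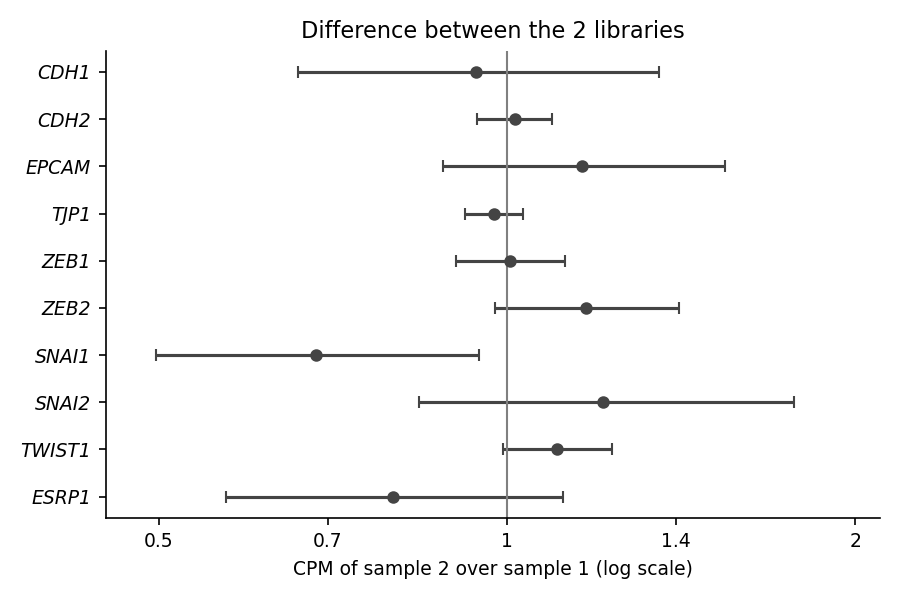
Ratio of CPM in sample 2 over sample 1 (log axis) for each of the 10 genes, with 95% exact intervals from the counts; the grey line is a ratio of 1. The interval of SNAI1 (0.497 to 0.946) lies below 1, and those of the other 9 genes include it.

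The partners through which cadherins act ranged widely. Of 14 catenins and adherens junction adaptors, 11 had at least 1 CPM in both samples, with a median over the 14 of 34.2 CPM, or 4.42 CPM per kb, below the 5.72 CPM per kb of tested coding genes. Highest per kb were NECTIN2, a nectin, at 40.5 ± 0.308, CTNNB1, which encodes beta-catenin, at 38.2 ± 2.28, and CTNNA1, which encodes the alpha-catenin that links cadherin to actin, at 30.7 ± 0.186 CPM per kb (SD, n = 2). CTNNB1 passed the binomial test and was lower in sample 2 (475 and 436 CPM, adjusted p = 0.000104), and AFDN, which encodes afadin, passed and was higher (255 and 297 CPM, adjusted p = 4.3e-09). These were 2 of 11 tested, against 8.97% of all tested genes. CTNND1, which encodes p120-catenin, had only 3.18 and 3.52 CPM. In GENCODE 29, 3.65% of its exon bases overlap a read-through gene on the same strand, which is not among the counted genes. The annotation used for the counting is not given. A loss of reads to such a gene was not tested, so its level is uncertain.

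Desmosome genes included some of the more abundant junction genes in the same cells that were low in CDH1. Of 12, 7 had at least 1 CPM in both samples, with a median of 60.1 CPM, and none of those passed the binomial test (8.97% over all tested genes). DSG2 (desmoglein 2) had 214 and 213 CPM, and DSP (desmoplakin) 321 and 328 CPM. PERP, a desmosome protein that p53 induces, was next per kb, at 29.1 ± 0.260 CPM per kb (SD, n = 2). DSG1, DSG3, DSC1, PKP1 and PKP3 had between 0 and 4 counts in each sample.

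Tight junction genes other than TJP1 were mostly low. Of 30 in the table, 20 had at least 1 CPM in both samples, and the median was 3.69 CPM. The cytoplasmic adaptors CGN (cingulin, 13.2 ± 0.0669 CPM per kb) and PARD3 (8.18 ± 0.0497), with the claudin gene CLDN15 (13.2 ± 0.390), were highest per kb (SD, n = 2). Of 21 tested, CGNL1, a paralog of CGN, passed the binomial test alone and was higher in sample 2 (12.4 and 17.8 CPM, adjusted p = 0.00762), against 8.97% of all tested genes called. CLDN8 had 0 counts in both samples.

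Epithelial regulators and surface proteins were divided. Of 23, 13 had at least 1 CPM in both samples, and the median was 1.94 CPM. LSR, a protein of tricellular junctions, at 21.0 ± 1.06, ESRP2 at 13.7 ± 0.00984 and the protease inhibitor gene SPINT2 at 6.51 ± 0.687 CPM per kb led (SD, n = 2). The epithelial factors GRHL2, OVOL1, ELF3 and EHF had between 0 and 4 counts in each sample, as had ST14. Other factors of the list were higher, with KLF5 at 23.9 and 24.1, KLF4 at 16.4 and 16.2 and GRHL1 at 12.3 and 13.9 CPM. GRHL3 (2.02 and 2.15 CPM) and OVOL2 (2.51 and 1.37 CPM) were low but above 1 CPM in both samples. Of 13 tested, ERBB3, a receptor of the EGFR family (34.9 and 45.3 CPM, adjusted p = 0.000728), and SPINT1 (14.4 and 19.1 CPM, adjusted p = 0.0334) passed the exact binomial test, both higher in sample 2. Over all tested genes 8.97% were called in either direction and 4.41% were called higher.

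Mesenchymal genes were also divided. Of 21, 14 had at least 1 CPM in both samples, with a median of 3.73 CPM. The matrix genes SPARC (38.8 ± 0.764 CPM per kb) and COL6A1 (34.3 ± 1.93) and the intermediate filament gene VIM (24.9 ± 0.582) led per kb (SD, n = 2). POSTN, DCN, FAP and COL1A2 had between 0 and 4 counts in each sample. Of 14 tested, TAGLN, an actin-binding protein of smooth muscle (2.51 and 6.77 CPM, adjusted p = 2.6e-05), and COL1A1 (54.0 and 65.4 CPM, adjusted p = 0.00299) passed the exact binomial test and were higher in sample 2. These were 2 of 14, where 8.97% of all tested genes were called in either direction and 4.41% were called higher. COL1A1 is also a fibroblast marker, and that list's sum was 64.2 CPM in sample 1 and 74.7 CPM in sample 2. Of its other markers COL3A1 (5.98 and 4.71 CPM), PDGFRA (1.16 and 1.92) and PDGFRB (1.54 and 1.37) reached 1 CPM in both samples, and the remaining 5 did not. The part of such cells or of library depth in these differences was not tested. The median log2 ratios were 0.04 for these mesenchymal genes and 0.16 for the epithelial list, beside 0.01 for all tested genes.

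**Figure D5:**
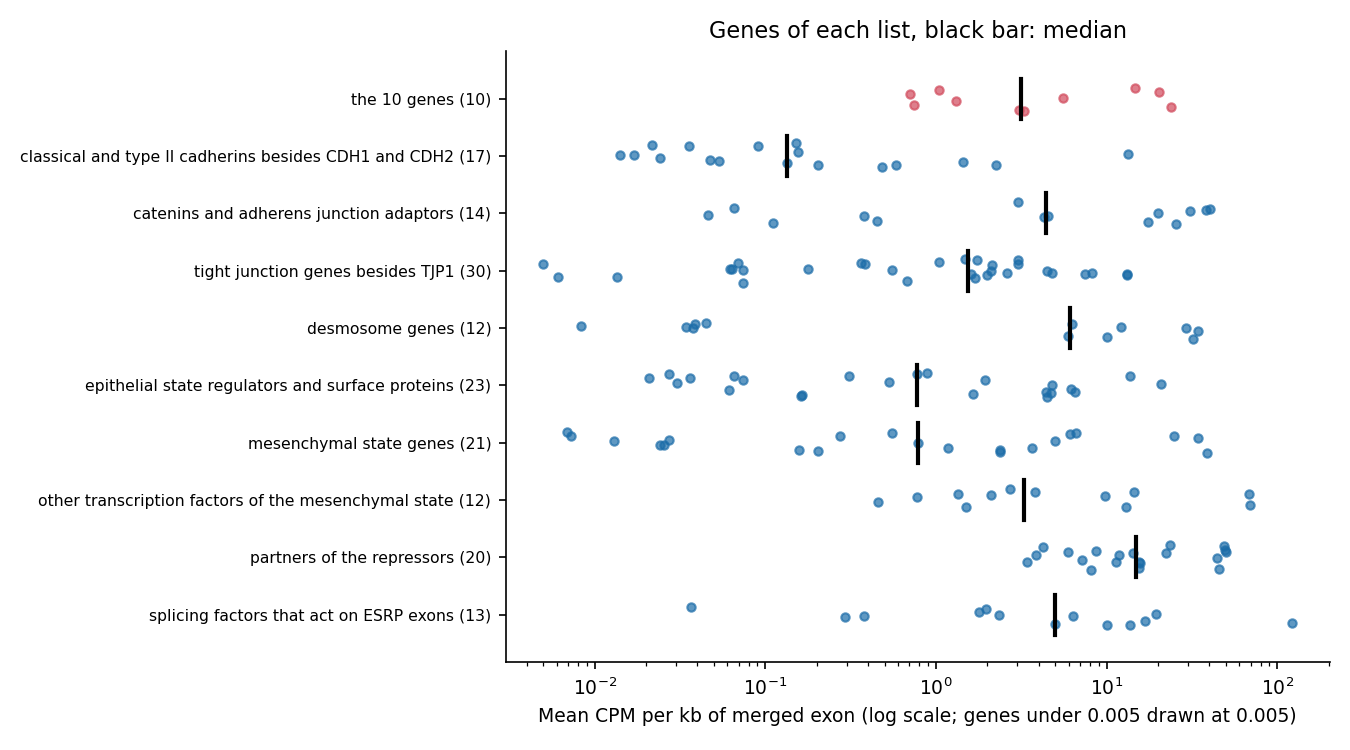
Mean CPM per kb of merged exon (log axis) of the 10 genes (red) and of the genes of 9 related lists (blue), 1 point per gene, with the median of each list as a black bar and the number of genes in brackets; CLDN8, with 0 counts, is drawn as the leftmost point of its list. The 10 genes span 0.706 to 23.8 CPM per kb with a median of 3.17, and the partners of the repressors have the highest median of the lists, 14.9.

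The genes that work beside the 5 transcription factors were all above 1 CPM. All 12 other transcription factors of the mesenchymal state had at least 1 CPM in both samples, with a median of 9.79 CPM, and 0 of 12 passed the binomial test, where 8.97% of all tested genes did. FOXC1, a forkhead factor of mesoderm, had 274 and 271 CPM. TCF3, which encodes the E proteins that pair with TWIST1, had 417 and 413 CPM. SOX9 was next per kb, at 14.6 ± 0.461 CPM per kb (SD, n = 2). All 20 partners of the repressors, such as corepressors, chromatin enzymes and proteins that set the stability of Snail, had at least 1 CPM in both samples, with a median of 101 CPM. The demethylase gene KDM1A, which Snail recruits, had 279 and 266 CPM, the deacetylase gene HDAC1 200 and 186 CPM, and YWHAZ, which encodes a 14-3-3 protein, 433 and 417 CPM. CTBP1 and CTBP2, which encode the corepressors bound by ZEB proteins, had 100.3 and 97.8 CPM and 98.8 and 91.5 CPM. Of these 20, 2 were called, near the 8.97% of all tested genes. SMARCA4 passed the exact binomial test and was higher in sample 2 (690 and 719 CPM, adjusted p = 0.0452), and FBXL14, a ubiquitin ligase subunit for Snail, was lower (111 and 97.2 CPM, adjusted p = 0.00564).

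Among splicing factors that act on the exons of ESRP proteins, with transcripts that carry such exons, 12 of 13 had at least 1 CPM in both samples, with a median of 37.9 CPM. PTBP1, an RNA-binding repressor of exons, had 878 and 810 CPM, was lower in sample 2 and passed the exact binomial test (adjusted p = 9.1e-08). MBNL1 also passed the exact binomial test and was lower in sample 2 (68.1 and 58.9 CPM, adjusted p = 0.0276). PTBP1 and MBNL1 were 2 of 12 tested, against 8.97% of all tested genes called in either direction and 4.56% called lower. After PTBP1 the highest per kb were ENAH (19.5 ± 0.284) and RBFOX2, an RNA-binding protein that acts on FGFR2 exons (16.9 ± 0.727 CPM per kb, SD, n = 2). CD44, an ESRP1 target, had 2.51 and 3.34 CPM.

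On the genome (GRCh38, GENCODE 29) CDH1 lies at chr16:68737225-68835548 and CDH2 at chr18:27950966-28177446, and their merged exons span 6177 and 4950 bases. ZEB1 lies at chr10:31318495-31529814, ZEB2 at chr2:144364364-144524583, TWIST1 at chr7:19020991-19117672 and SNAI1 at chr20:49982999-49988886. SNAI2 lies at chr8:48917604-48921740, ESRP1 at chr8:94641074-94707466, EPCAM at chr2:47345158-47387601 and TJP1 at chr15:29699367-29968865. No exon of the 10 genes overlaps another gene's on the same strand there. Of the 50-base stretches in their transcripts, between 98.4% (EPCAM) and 100% were found in no other gene's transcript. In RefSeq windows of 300 bases around transcript starts, 4 of the 10 genes (CDH2, ZEB1, ZEB2 and TJP1) had 14 windows. The E-box letters CACCTG, searched on both strands, were in 3 of these, 2 of ZEB1 and 1 of TJP1, and in 20.6% of all 35116 windows.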

How the data were processed

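The counts are whole numbers per Ensembl gene, deposited without normalization, and the CPM files hold the deposited counts times 1 constant per library. Per the submitters' processing notes, STAR 2.7.7a, edgeR and GRCh38 were used. Not given in the sources used here are the counting program, the strand setting, the annotation and how the library size behind the CPM (3.78% and 2.68% above the column totals) was set. Of the 60683 gene IDs, 99.5% had a symbol and 96.4% were in GENCODE 29, which gave lengths and coordinates.

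The 10 genes, 10 related lists and 6 marker lists were chosen with earlier results of these data known. Of 203 list symbols, 2 older ones matched no ID. Named genes are the 10, the 3 of each list highest per kb and all of a list of 6 or fewer. Others, such as paralogs, genes past the test and genes near 0, were chosen after their values were seen. Some genes of the lists are not reported here by name. The exact binomial test took its null share from the deposited scaling factors. It was tried on simulated counts with counting error only, which leaves out any further spread between real libraries. Alternatives were other scalings (TMM from edgeR 4.0.16 and size factors from DESeq2 1.42.0), filters, pseudocounts and lengths, and leaving out a sample. Log2 ratios of CPM + 1 understate the ratio of low genes. Python 3.11.15, scipy 1.17.1 and R 4.3.3 were used.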

Additional observations from a re-analysis of the deposited data

How the results depend on the processing

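None of the 10 genes passed the test between the libraries under any of the scalings and filters tried. With DESeq2 size factors 2 of them had an unadjusted p under 0.05. A minimum of 10 CPM left 5 of the 10 to test. The count of all genes past the test was 1393, and ranged from 972 with no filter to 1497 with column totals. Of the 1393, 685 were higher and 708 lower in sample 2, against 857 and 551 with DESeq2 size factors. The ratio of ZEB1 turned to -0.0065 (log2) with column totals. In the order per kb, 4 of the 10 ranks were as before with the longest coding transcript, and 6 to 10 without either sample. With the longest coding transcript the log2 ratio of CDH2 to CDH1 was 4.63 (4.77 with merged exons), and that of ZEB1 to ZEB2 was 2.05 (2.98). No paired analysis was possible because the samples form 1 group. The lower depth of sample 1 limits the genes under 10 CPM.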
